A study of Mus musculus with 24 samples.

Results

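The cell cycle and DNA replication genes described here are 41 genes chosen by symbol from the 53392 genes in the deposited files. They fall by role into 6 G1/S cyclins and kinases, 8 genes of origin licensing, 5 of replication and nucleotide supply, 3 transcription factor and repair genes, and 19 mitotic genes (6 kinases and cyclins of mitotic entry, 11 of chromosomes, spindle and checkpoint, and 2 of the anaphase-promoting complex pathway). All 41 were found in the files, and all 41 passed the filter on low counts in each fit, although mitotic members had at most 117 reads in a tubule library. The libraries are polyA messenger RNA. All mice were of the inbred strain FVB, and no transgene or deletion is named for any group. Sham males and females, labelled as having no injury, were set against males and females with ischemic acute kidney injury. From these kidneys, after enzymatic digestion, proximal tubules were collected by microdissection and endothelial cells with CD31 microbeads. There were 3 libraries in each of the 8 groups of treatment, sex and isolation, except sham female endothelial cells with 2. The time between injury and collection and the age of the mice are not given in the sources used here.

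Cell division runs in an ordered programme. D-type cyclins with Cdk4 and E-type cyclins with Cdk2 release E2F transcription factors in late G1, which switch on the genes that load the Mcm helicase at replication origins (licensing) and supply nucleotides in S phase, and a later programme driven by B-Myb and Foxm1 switches on the genes of mitosis. Adult proximal tubule cells divide rarely, and after ischemia surviving tubule cells can re-enter the cycle. These points are background and were not measured here.

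The promoters of 5 members are shown as examples: licensing genes that rose in injured male tubules (Cdt1, Mcm5 and Mcm7) and mitotic members (Cdk1 and Top2a). Their short motifs differ between licensing and mitotic members. RefSeq entries (GRCm38.p6, 250 bases before to 50 after the annotated start) were found for 32 of the 41 members. Each is written 5′ to 3′ on the gene's strand, and capitals mark matches on either strand to an E2F-type motif, TTTNNCGC, or to the cell cycle homology region (CHR) letters TTTGAA, which mark many mitotic promoters.
Cdt1 promoter, chr8:122567765-122568064, plus strand: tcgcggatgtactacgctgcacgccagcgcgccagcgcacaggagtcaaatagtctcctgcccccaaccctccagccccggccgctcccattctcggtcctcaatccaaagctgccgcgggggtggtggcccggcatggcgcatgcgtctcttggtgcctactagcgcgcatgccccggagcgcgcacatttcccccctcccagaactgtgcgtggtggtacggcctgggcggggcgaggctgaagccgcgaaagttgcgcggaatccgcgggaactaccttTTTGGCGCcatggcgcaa
Mcm5 promoter, chr8:75109259-75109558, plus strand: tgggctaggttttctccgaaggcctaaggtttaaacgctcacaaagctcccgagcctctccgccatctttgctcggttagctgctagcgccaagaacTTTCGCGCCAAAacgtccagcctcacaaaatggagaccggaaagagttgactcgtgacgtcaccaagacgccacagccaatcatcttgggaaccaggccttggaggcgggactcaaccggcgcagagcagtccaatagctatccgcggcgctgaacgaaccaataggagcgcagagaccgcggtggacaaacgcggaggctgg
Mcm7 promoter, chr5:138171834-138172133, minus strand: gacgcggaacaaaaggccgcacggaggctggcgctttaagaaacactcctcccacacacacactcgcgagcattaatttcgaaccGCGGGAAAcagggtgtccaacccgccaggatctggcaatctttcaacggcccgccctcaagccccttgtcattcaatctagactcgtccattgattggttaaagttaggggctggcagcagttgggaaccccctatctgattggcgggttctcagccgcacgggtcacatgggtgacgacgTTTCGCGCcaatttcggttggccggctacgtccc
Cdk1 promoter, chr10:69352863-69353162, minus strand: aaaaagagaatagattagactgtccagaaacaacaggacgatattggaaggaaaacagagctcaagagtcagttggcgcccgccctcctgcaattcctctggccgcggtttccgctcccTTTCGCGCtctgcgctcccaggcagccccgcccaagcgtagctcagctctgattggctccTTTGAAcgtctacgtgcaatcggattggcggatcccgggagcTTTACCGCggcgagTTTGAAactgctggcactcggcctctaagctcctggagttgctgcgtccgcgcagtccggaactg
Top2a promoter, chr11:99024140-99024439, minus strand: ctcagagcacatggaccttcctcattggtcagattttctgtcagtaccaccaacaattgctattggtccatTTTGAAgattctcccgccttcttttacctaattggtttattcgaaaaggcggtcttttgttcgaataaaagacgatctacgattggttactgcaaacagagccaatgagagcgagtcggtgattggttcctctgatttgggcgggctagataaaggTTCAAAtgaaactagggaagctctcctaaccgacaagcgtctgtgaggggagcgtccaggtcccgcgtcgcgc

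Cdt1, whose protein loads the Mcm helicase, has 1 E2F-type match, which begins at position 32, counted from the start. Mcm5 has 2 overlapping matches, at positions -153 and -149, and Mcm7 has 2, at -165 and 16. Cdk1, the kinase that drives entry into mitosis, has 2 E2F-type matches and 2 CHR matches, and Top2a, the topoisomerase of chromosome condensation, has 2 CHR and no E2F-type match. Among the licensing genes 6 of 7 with an entry (6 of 8 promoters) held the E2F-type letters (Cdc6, Cdt1, Mcm3, Mcm5, Mcm6 and Mcm7). They were in 1 of 15 mitotic members (Cdk1) and 5.17% of all 32851 promoters of this length. Other S-phase and G1 members mostly lacked them: 1 of 5 replication genes (Tyms), 1 of 3 G1/S genes (Cdk2) and 0 of 2 transcription factor and repair genes had a match. The CHR letters were in 11 of 15 mitotic members and in 1 licensing gene (Mcm2), against 17.9% of all promoters. CCAAT, the third motif searched (both strands, not capitalised above, and free to overlap the others), was in 13 of 15 mitotic members. It was also in 5 of 7 licensing genes and in 23 of all 32 members with an entry, against 37.4% of all promoters. Of the members that rose in injured male tubules, 4 of 7 with an entry held the E2F-type letters (Cdk2, Cdt1, Mcm5 and Mcm7). A match is a string of letters and not a measured site of binding.

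Levels are given in CPM, estimated reads scaled by the normalized size of the library, and compare a gene between libraries, not genes with each other. Libraries held 32592517 to 54906972 estimated reads. Within a group, log expression correlated at 0.933 to 0.981 between libraries in 6 groups. Injured male tubule replicate 3 correlated at 0.928 and 0.935 with replicates 1 and 2, which correlated at 0.976 with each other. Of these values 0.928 lies just below the range of the 6 groups and 0.935 within it. Injured male endothelial replicate 2 correlated at 0.913 and 0.916 with the others of its group. Results that rest on either library are given without it. The bead isolates were rich in other cells: summed markers of the proximal tubule reached 10451 to 33026 CPM there and 11950 to 36057 in tubules, while endothelial markers summed to 470 to 1909 CPM in the isolates and 133 to 367 in tubules. They are therefore called bead isolates below. In bulk RNA, a change in the number of cells of a type and a change in RNA per cell cannot be told apart.

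In sham tubules the levels were highest for cyclin D1 and its kinase and low for mitotic members. On the deposited TPM scale, which corrects for transcript length and allows genes to be compared, Ccnd1, encoding cyclin D1, had the highest median of the 41 over sham tubule libraries, 80.3 TPM (range 50.1 to 109), and Cdk4, its kinase partner, came next at 51.6 TPM. Tyms, thymidylate synthase, and Pcna, the sliding clamp of DNA polymerase, followed at 18.0 and 17.0 TPM, with overlapping ranges. The 19 mitotic members together summed to 1.95 to 6.72 TPM in the 12 tubule libraries. No single mitotic member exceeded 2.38 CPM in tubules (117 reads) or 2.53 CPM in bead isolates (145 reads), so their changes are known less precisely than those of the S-phase members.

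In male tubules, some genes of licensing, replication and the G1/S transition rose with injury, and no mitotic member passed the test. Of the 41 members, 9 rose and 0 fell at an adjusted p under 0.05, against 19.0% of all 18369 genes called in either direction and 10.6% called higher. The members' share, 22.0%, was near that of all genes. The median log2 change of the 41 was 0.43, against -0.03 for all genes tested, and 27 were above 0. By role, 5 of 8 licensing genes rose (Cdt1, Mcm2, Mcm4, Mcm5 and Mcm7), 2 of 5 replication genes (Pcna and Rrm2), 2 of 6 G1/S genes (Ccne2 and Cdk2), 0 of 3 transcription factor and repair genes and 0 of 19 mitotic genes. The plot of changes in all 41 genes is arranged by role, and a difference between roles was not tested.

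**Figure D1:**
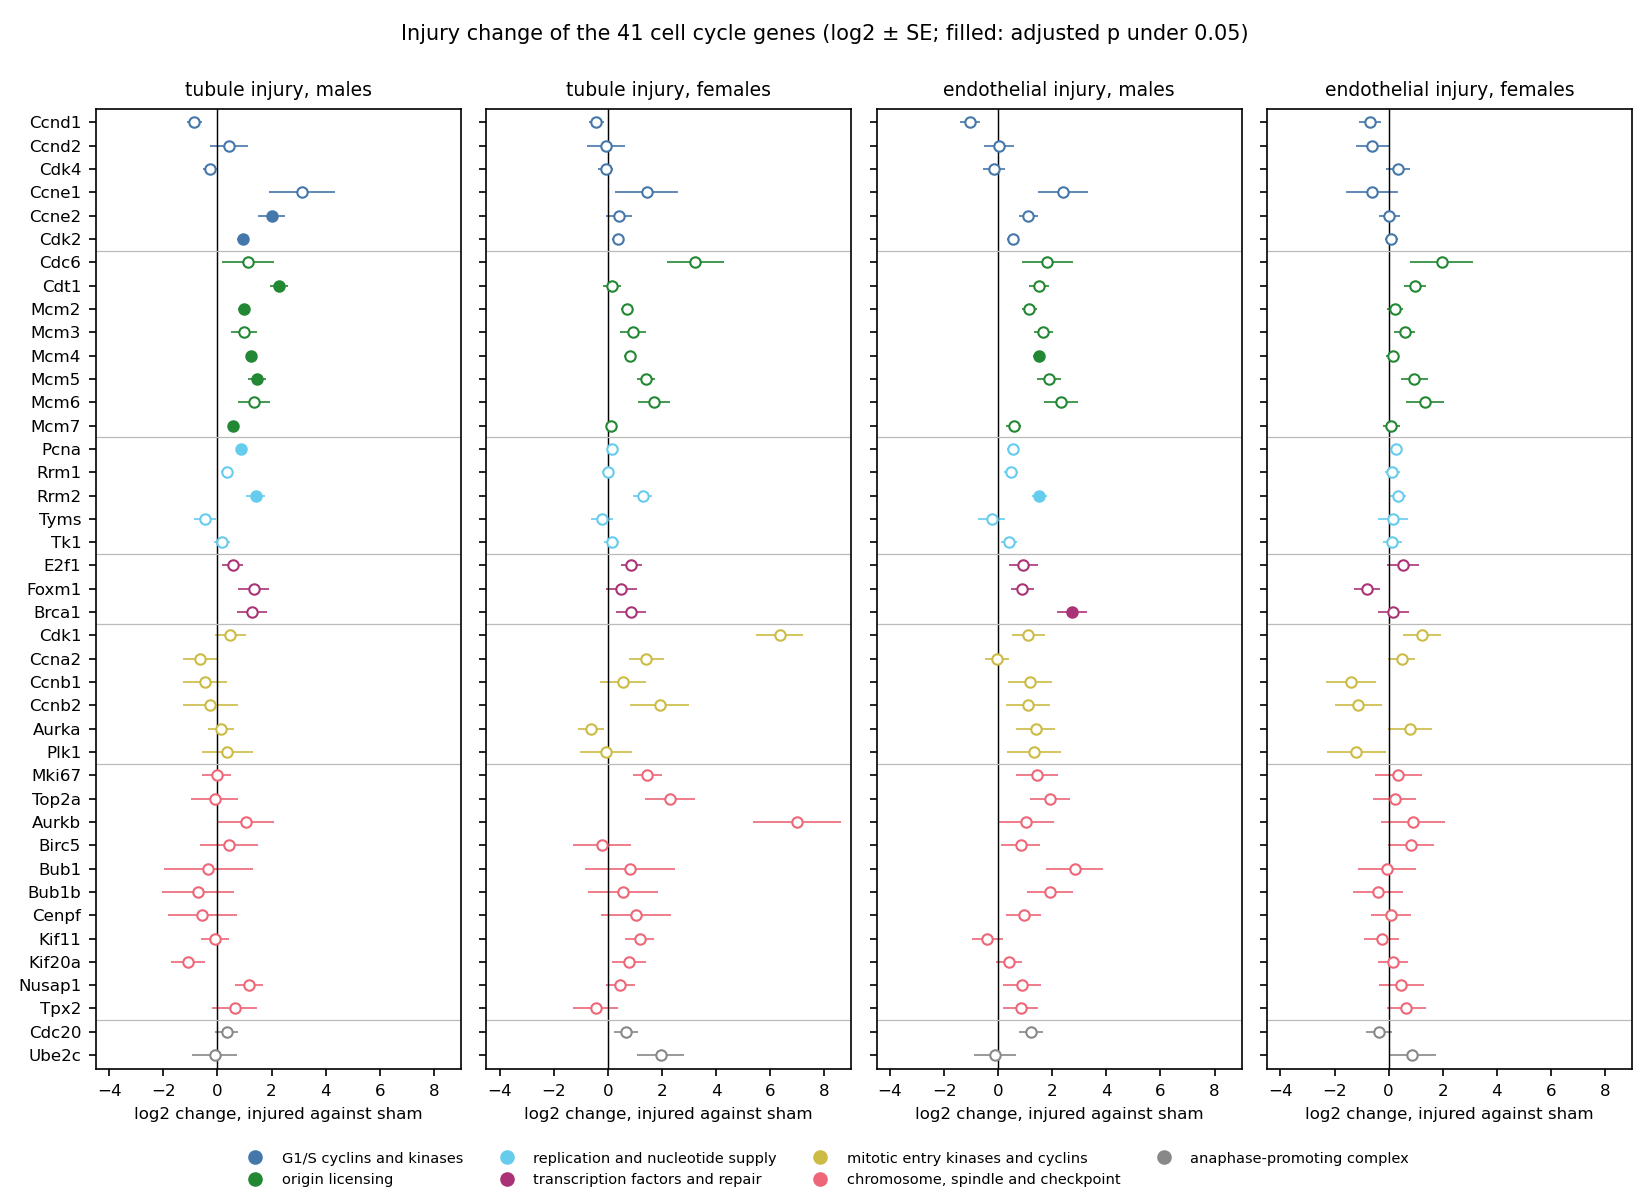
Log2 change with injury (x axis, injured against sham) of each of the 41 genes, with the SE as a bar, in 4 panels for tubules and bead isolates of each sex; colours and grey lines separate the roles, and filled points have an adjusted p under 0.05. Filled points number 9 in male tubules, 3 in male bead isolates and 0 in both female panels. The female tubule value of Aurkb is fitted against libraries that hold no read and that of Cdk1 against libraries that hold 1.

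The largest rise among the called members was that of Cdt1 (ENSMUSG00000006585.3, chr8:122568015-122573554). It read 4.47, 4.86 and 4.07 CPM in sham males and 29.0, 25.7 and 10.4 CPM in injured males, replicates 1 to 3, so the groups did not overlap and injured replicate 3 was lowest of its group. The log2 change was 2.28 ± 0.34 (SE, edgeR quasi-likelihood test, adjusted p = 0.00244). Mcm4 (ENSMUSG00000022673.5, chr16:15623897-15637400), a subunit of the Mcm2-7 helicase, read 7.91, 6.45 and 6.55 CPM in sham and 14.9, 18.9 and 16.0 CPM in injured males. All 3 injured libraries lay close together and above every sham library, a log2 change of 1.25 ± 0.19 (adjusted p = 0.00281).

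Other helicase subunits rose as well. Mcm5 read 5.52, 4.57 and 3.49 CPM in sham and 7.43, 10.5 and 19.2 CPM in injured males (1.45 ± 0.33, adjusted p = 0.0159), with injured replicate 3 highest, the reverse of Cdt1. Mcm2 read 10.4, 9.33 and 12.6 CPM in sham and 16.8, 18.2 and 29.1 CPM in injured males (0.99 ± 0.22, adjusted p = 0.0138). Mcm7 read 22.8, 19.6 and 17.4 CPM against 30.2, 31.1 and 28.5 CPM, with the smallest of the called changes (0.58 ± 0.16, adjusted p = 0.0318). None of these 3 groups of libraries overlapped. Mcm6 read 3.23, 1.62 and 3.44 CPM in sham and 1.93, 6.02 and 13.1 CPM in injured males, and Mcm3 3.89, 2.76 and 4.88 against 4.19, 6.71 and 11.8 CPM: in both the groups overlapped and the test was not passed. Cdc6, the other loader of the helicase, stayed under 1 CPM in every tubule library of males and was not called.

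Among replication genes, Pcna (ENSMUSG00000027342.14, chr2:132249162-132253314) read 37.6, 37.9 and 35.9 CPM in sham and 71.1, 80.0 and 50.8 CPM in injured males, without overlap (0.86 ± 0.17, adjusted p = 0.00797). Rrm2, the inducible subunit of ribonucleotide reductase, read 3.41, 2.57 and 2.55 against 8.69, 7.76 and 6.33 CPM, also without overlap (1.42 ± 0.35, adjusted p = 0.0202). Its constitutive partner Rrm1 read 14.4, 12.2 and 11.1 CPM in sham and 12.3, 13.2 and 22.6 CPM in injured males and was not called. Tyms read 17.4, 16.3 and 15.3 CPM in sham males, 5.73 and 6.85 in injured replicates 1 and 2, and 22.7 in replicate 3. The injured libraries of Tyms therefore lay on both sides of sham. Protein-coding transcripts held 44.3 to 60.4% of the reads of Tyms over the groups, so its gene total mixes RNA forms. For Cdk4 they held 54.7 to 63.5%. Tk1, a thymidine salvage kinase, read 6.86 to 7.32 CPM in sham and 7.38 to 9.06 CPM in injured males, higher in every library but not called.

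The G1/S members differed in direction of level. Ccne2, a cyclin E, read 0.890, 0.500 and 0.177 CPM in sham and 1.95, 2.59 and 1.75 CPM in injured males (2.00 ± 0.50, adjusted p = 0.0215), and its partner Cdk2 read 6.74, 6.52 and 5.89 against 13.4, 13.2 and 9.94 CPM (0.93 ± 0.21, adjusted p = 0.0149). Ccne1, the other cyclin E, read 0.356, 0.190 and 0 CPM in sham and 2.78, 1.59 and 0.480 CPM in injured males, without overlap but not called. Ccnd1 (ENSMUSG00000070348.5, chr7:144929931-144939925) went the other way in level: 383, 448 and 446 CPM in sham and 156, 178 and 370 CPM in injured males, with every injured library below every sham library (-0.86 ± 0.28, adjusted p = 0.0551). Cdk4 read 48.4, 50.4 and 41.1 CPM in sham and 22.6, 32.8 and 60.8 CPM in injured males, on both sides of sham.

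Mitotic members showed no called change in the same tubules. Mki67, the proliferation marker Ki-67, read 1.22, 0.667 and 0.430 CPM in sham and 0.566, 0.809 and 0.883 CPM in injured males, with overlap (-0.04 ± 0.53, adjusted p = 0.971). Top2a read 1.04, 1.10 and 0.632 against 0.360, 0.785 and 1.42 CPM (-0.10 ± 0.88, adjusted p = 0.947), and Cdk1 (ENSMUSG00000019942.13, chr10:69335146-69352938) 0.814, 0.357 and 0.758 against 0.771, 0.975 and 0.940 CPM (0.48 ± 0.59, adjusted p = 0.597). The median log2 change of the 19 was -0.10, 1 (Nusap1) had an unadjusted p under 0.05, the smallest adjusted p was 0.134, and DESeq2 also called 0 of them. The SEs of these 3 genes, 0.53 to 0.88 on the log2 scale, limit what could be detected at their depth. Over all 41 members, 13 were higher in every injured than in every sham male library, against 14.1% of all genes, and 2 were lower (Ccnd1 and Kif20a), against 16.7% of all genes.

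Cdt1, Mcm4 and Pcna were called in 12 of 12 fits that each left out 1 tubule library. Mcm2 was called in 11 of them, Mcm5 in 10, Ccne2 in 9, Cdk2 and Rrm2 in 8 each and Mcm7 in 6. The number called was 3 without sham male replicate 2, 5 without sham male replicate 3 or injured male replicate 2, 6 without injured male replicate 1, and 14 without injured male replicate 3. Those 14 were 11 higher, with Foxm1 and Ccne1 added, and 3 lower, Ccnd1, Cdk4 and Tyms. The background moved with these fits: all genes called were 6.64% and 8.20% without sham male replicate 2 and 3, 6.07% and 4.97% without injured male replicate 1 and 2, and 42.5% without injured male replicate 3, above the members' 34.1% in that fit. With only the 2 groups compared in the fit, 0 of 38 members tested were called, against 0.913% of all genes. DESeq2 called 14 of 39 (35.9%), against 30.5%. With offsets for transcript length, 4 rose (Ccne2, Cdt1, Pcna and Rrm2) and 1 fell (Ccnd2).

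**Figure D2:**
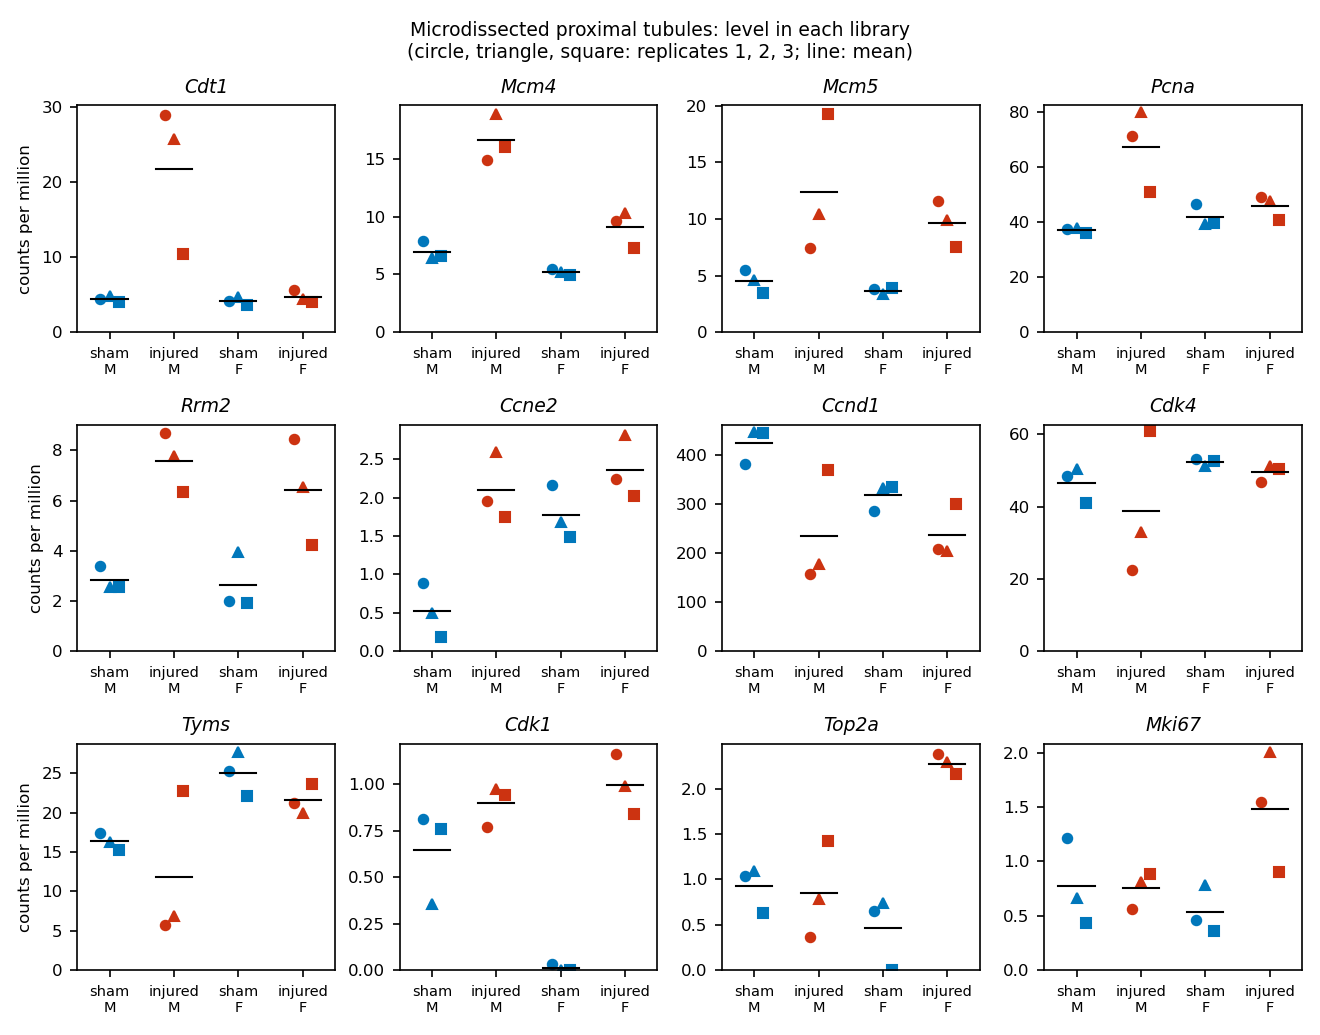
Level in CPM (y axis, linear, from 0) of 12 genes in each microdissected tubule library, by sham or injured and male (M) or female (F); marker shape gives the replicate and the line the group mean. Cdt1 lies at 10.4 to 29.0 CPM in injured males and at most 5.66 CPM in every other library, whereas Top2a is highest in injured females, at 2.17 to 2.38 CPM.

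In female tubules no member passed the adjusted test, and the genes that stood apart by level included mitotic ones. Of the 41, 0 were called by edgeR, against 0.0109% of all genes tested (2 genes), 14 had an unadjusted p under 0.05, and DESeq2 called 6 (Aurkb, Cdc6, Cdk1, Mcm4, Mcm5 and Rrm2), against 3.30% of all genes. The median log2 change was 0.72, against 0.00 for all genes, and 32 members were above 0. In 16 members every injured library exceeded every sham library, against 15.3% of all genes, and in 0 the reverse held, against 11.8%. These 16 included Mcm2 to Mcm6, Cdc6, Rrm2 and E2f1 and the mitotic members Aurkb, Ccna2, Cdk1, Mki67, Top2a and Ube2c. The count by edgeR was 1 without sham male replicate 1, 2 without sham male replicate 3, 4 without injured male replicate 3 (Cdk1, Mcm2, Mcm4 and Mcm5), and 6 with only the 2 female groups in the fit, where 0.547%, 0.705%, 2.59% and 6.90% of all genes were called.

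Top2a read 0.649, 0.734 and 0 CPM in sham and 2.38, 2.29 and 2.17 CPM in injured female tubules (2.30 ± 0.92, adjusted p = 0.364). Mki67 read 0.464, 0.782 and 0.357 against 1.55, 2.00 and 0.901 CPM (1.46 ± 0.54, adjusted p = 0.303). Neither gene's groups overlapped, and neither passed the adjusted test. Mcm4 read 5.50, 5.19 and 4.92 CPM in sham and 9.60, 10.4 and 7.31 CPM in injured females (0.80 ± 0.19, adjusted p = 0.113), and Mcm5 3.77, 3.34 and 3.90 against 11.6, 9.93 and 7.53 CPM (1.40 ± 0.34, adjusted p = 0.114). Rrm2 read 1.98, 3.93 and 1.92 against 8.46, 6.54 and 4.22 CPM (1.29 ± 0.35, adjusted p = 0.161). All 3 stood above sham in every injured library. Over all alternative fits their log2 changes in females ranged from 0.01 to 0.94 (Mcm4), 0.77 to 1.55 (Mcm5) and 0.62 to 1.75 (Rrm2). Cdt1 read 4.17, 4.67 and 3.63 CPM in sham and 5.66, 4.36 and 3.95 CPM in injured females, with overlap, and Pcna 46.3, 39.0 and 39.6 against 49.1, 47.5 and 40.8 CPM (0.14 ± 0.16, adjusted p = 0.896). Ccnd1 read 287, 333 and 336 CPM in sham and 208, 205 and 301 CPM in injured females (-0.42 ± 0.28, adjusted p = 0.686).

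Cdk1 was almost unread in sham female tubules. Its reads there were 1, 0 and 0, or 0.0309, 0 and 0 CPM, against 1.16, 0.991 and 0.836 CPM in injured females. From 141 reads in injured and 1 in sham females the ratio was 111, with an exact 95% interval of 19.6 to 4406 that covers counting error only. Protein-coding transcripts held 56.7% of the Cdk1 reads of injured females, 65.3% of those of injured males and 34.7% of the 77 of sham males. The fitted log2 change of 6.36 ± 0.86 depends on the prior count (adjusted p = 0.0528). Aurkb, the Aurora B kinase of the spindle checkpoint, had 0 reads in the 3 sham female libraries and 53 in the injured females, at least 13.9-fold higher with 3 counts, taken over the 3 libraries, as the floor.

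Markers of other nephron segments stood higher in the same injured female libraries. Summed markers of thick ascending limb and distal tubule (8 genes, none at 0) were 1855 to 2222 CPM in sham and 5693 to 7363 CPM in injured female tubules, and those of collecting duct (9 genes, none at 0) 91.7 to 270 and 876 to 1113 CPM. In females the proximal tubule sums (10 genes, none at 0) were 16500.4 to 20121.7 CPM in sham and 13261.3 to 15330.5 CPM in injured libraries. In males they were 34613 to 36057 CPM in sham and 11950 to 28857 CPM in injured libraries. The endocytic receptor genes of the proximal tubule list, Lrp2 (-1.86 ± 0.22, adjusted p = 0.000941) and Cubn (-1.49 ± 0.20, adjusted p = 0.00163), fell in males. The distal sums of males were 1575 to 3303 and 2029 to 5174 CPM, and the neutrophil sums 1.30 to 2.07 CPM in sham, with Camp and Mmp8 at 0, and 4.55 to 32.5 CPM in injured libraries, with no gene of the list at 0. Macrophage sums overlapped between sham and injured tubules in both sexes (13.0 to 34.3 and 27.9 to 46.3 CPM). The part of these markers in the results for cell cycle genes was not tested.

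With both sexes weighted equally, 11 members rose in injured tubules and 0 fell, against 11.7% of all genes called. They were Mcm4 (1.03 ± 0.14, adjusted p = 0.00171), Mcm5, Mcm2, Mcm6 and Cdt1 of licensing, Pcna and Rrm2 of replication, Ccne2 and Cdk2 of G1/S, and Cdk1 and Aurkb of mitosis. In sham female tubules Cdk1 had 1 read and Aurkb 0, a limit that leaving out 1 library does not remove. In males alone Cdk1 changed by 0.48 on the log2 scale and was not called. Mcm4, Mcm5, Mcm2, Cdt1, Rrm2 and Cdk1 were called in 12 of 12 fits without 1 library. Mcm6, Ccne2 and Aurkb were called in 2, 2 and 3 of them. With transcript-length offsets the calls of Mcm4 (adjusted p = 0.194), Mcm5, Cdt1, Pcna, Mcm6 and Aurkb were lost. The count was 6 without sham male replicate 2, injured female replicate 1 or 2, or injured male replicate 2, 7 without sham female replicate 3, and 16 without injured male replicate 3, where 38.7% of all genes were called.

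The sexes differed directly in a few members. In sham tubules 2 members were called, against 5.80% of all genes: Cdk1 was higher in males (77 reads against 1, a ratio of 70.6, 95% interval 12.3 to 2826, adjusted p = 0.00237), and Rrm1 was lower, at 14.4, 12.2 and 11.1 CPM in males and 24.6, 22.0 and 22.3 CPM in females (-0.87 ± 0.22, adjusted p = 0.0432). The Cdk1 call held in 12 of 12 fits without 1 library. The Rrm1 call held in 3 of 12, the fits without injured male replicate 1, 2 or 3. The count was 1 without sham female replicate 1 or 3, sham male replicate 2 or any injured female library, and 4 (1 higher, 3 lower) without injured male replicate 3, where 13.6% of all genes were called. Aurkb had 13 reads in sham males and 0 in sham females, at least 3.98-fold higher with the same floor, and was not called.

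In injured tubules 5 members were higher in males than in females and 0 lower, against 23.3% of all genes called. Cdt1 read 29.0, 25.7 and 10.4 CPM in males and 5.66, 4.36 and 3.95 CPM in females (2.22 ± 0.33, adjusted p = 0.00171). Mcm7 read 30.2, 31.1 and 28.5 against 17.4, 16.2 and 13.8 CPM (0.92 ± 0.16, adjusted p = 0.00392), and Mcm4 14.9, 18.9 and 16.0 against 9.60, 10.4 and 7.31 CPM (0.87 ± 0.19, adjusted p = 0.00924). Those 3 calls held in 12 of 12 fits without 1 library. Pcna (0.55 ± 0.16, adjusted p = 0.0331) and Nusap1, a spindle protein gene that read 1.41, 2.24 and 1.06 against 0.387, 0.661 and 0.407 CPM (1.69 ± 0.53, adjusted p = 0.0399), held in 5 and 7. The count was 3 without any injured female library or injured male replicate 1 or 2, and 11 (6 higher, 5 lower) without injured male replicate 3, where 44.1% of all genes were called, and the Pcna call was also lost without sham male replicate 1 or 2.

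The injury response itself differed between the sexes in 1 member, against 0.855% of all genes. Cdk1 changed less in males than in females (males minus females, -5.88 ± 1.05 on the log2 scale, adjusted p = 0.0332), and its injured levels did not differ by the test (adjusted p = 0.878). The value rests on the near absence of reads in sham females, and it held in 3 of 12 fits without 1 library, those without sham female replicate 1, sham male replicate 3 or injured male replicate 3. For Cdt1 and Pcna this test of the difference gave adjusted p = 0.0585 and 0.141. Without injured male replicate 3, 6 members (14.6%) passed it (2 higher, 4 lower), below the 30.5% of all genes in that fit.

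In male bead isolates 3 members rose and 0 fell, against 0.864% of all 19910 genes tested. Mcm4 read 8.11, 7.57 and 9.44 CPM in sham and 21.9, 28.1 and 21.2 CPM in injured males (1.50 ± 0.21, adjusted p = 0.0152). Rrm2 read 3.81, 3.37 and 4.38 against 11.4, 10.6 and 11.2 CPM (1.52 ± 0.26, adjusted p = 0.0297). Brca1, a repair gene expressed in S phase, read 0.312, 0.415 and 0.183 against 2.59, 0.985 and 2.53 CPM (2.74 ± 0.55, adjusted p = 0.0490). In all 3 genes every injured library lay above every sham library. The median log2 change of the 41 was 1.10, against -0.02 for all genes, with 35 above 0 and 17 at an unadjusted p under 0.05, and 16 members were higher without overlap, against 8.81% of all genes, and 1 (Ccnd1) lower, against 8.96%.

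Injured male isolate replicate 2 stood apart in several licensing genes. Mcm5 read 5.35, 5.13 and 4.79 CPM in sham and 25.4, 7.70 and 22.3 CPM in injured males (1.86 ± 0.44, adjusted p = 0.0778), and Mcm6 1.41, 1.87 and 3.44 against 15.1, 2.84 and 15.9 CPM (2.33 ± 0.64, adjusted p = 0.112). Mcm3 read 4.12, 3.71 and 5.27 against 16.3, 9.78 and 15.6 CPM (1.67 ± 0.35, adjusted p = 0.0513). Replicate 2 was lowest of the injured males in each of the 3. Without it 7 members were called, all higher: Brca1, Mcm2, Mcm3, Mcm4, Mcm5, Mcm6 and Rrm2, against 1.75% of all genes in that fit. The number called was 0 without sham male replicate 1 or 2, 1 without either sham female library, injured female replicate 2, or injured male replicate 1 or 3, and 9 by DESeq2, against 5.93% of all genes, so which of these genes pass depends on the libraries included.

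No mitotic member was called in male isolates (0 of 19 by edgeR and by DESeq2, 4 at an unadjusted p under 0.05). Mki67 read 0.120, 0.337 and 1.58 CPM in sham and 1.21, 2.39 and 1.90 CPM in injured males, with overlap through sham replicate 3 (1.42 ± 0.78, adjusted p = 0.419), and without that library Mki67 was called. Top2a read 0.0719, 0.519 and 0.870 against 2.53, 1.12 and 1.84 CPM, without overlap (1.90 ± 0.75, adjusted p = 0.257). Cdk1 read 0.336, 0.182 and 0.710 against 0.944, 0.582 and 1.14 CPM (1.11 ± 0.62, adjusted p = 0.426). Ccnd1 read 574, 511 and 426 CPM in sham and 282, 130 and 328 CPM in injured males, lower in every injured library as in tubules (-1.03 ± 0.37, adjusted p = 0.219). Pcna read 61.4, 52.0 and 50.9 against 84.3, 82.4 and 71.3 CPM, higher in every injured library (0.53 ± 0.19, adjusted p = 0.223).

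Neutrophil markers stood higher in the injured male isolates: their sums were 3.73 to 7.56 CPM in sham males, with Camp and Ly6g at 0, and 12.5 to 115 CPM in injured males, with no gene at 0. Macrophage sums overlapped only through the highest sham library (15.8, 16.2 and 99.4 CPM in sham and 86.0 to 132 CPM in injured males, no gene at 0). In female isolates both overlapped, neutrophil sums at 2.96 to 8.29 and 4.81 to 12.2 CPM and macrophage sums at 32.9 to 50.4 and 46.5 to 55.6 CPM. Proximal tubule sums were 16740 to 33026 CPM in sham and 10451 to 14261 CPM in injured males. Endothelial sums were 470, 484 and 1701 CPM in sham and 726 to 1540 CPM in injured males, again with overlap only through the highest sham library. The part of these cells in the results was not tested.

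**Figure D3:**
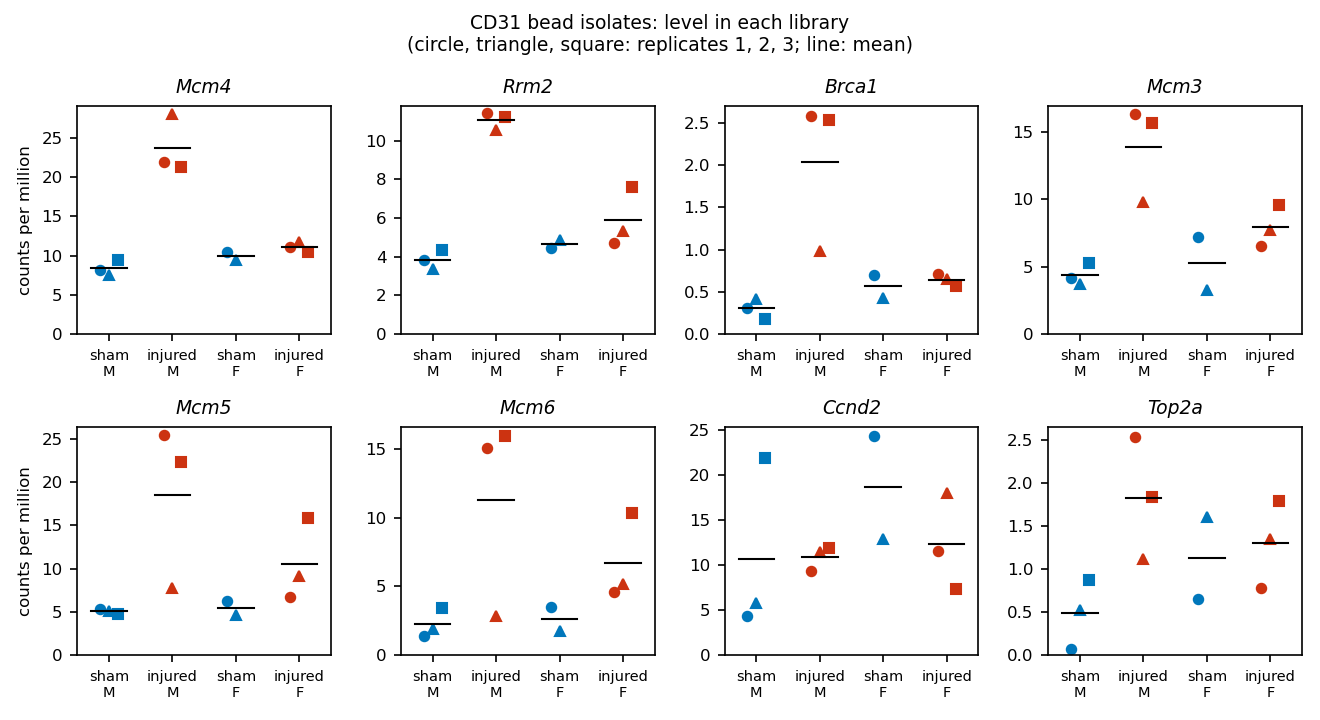
Level in CPM (y axis, linear, from 0) of 8 genes in each CD31 bead isolate, by sham or injured and male (M) or female (F); marker shape gives the replicate and the line the group mean. Mcm4 lies at 21.2 to 28.1 CPM in injured males and at 7.57 to 11.7 CPM in the other libraries, and Rrm2 at 10.6 to 11.4 CPM in injured males.

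In female isolates 0 members were called by edgeR or DESeq2, against 0% of all genes, and 1 (Cdt1, 0.98 ± 0.42, adjusted p = 1) had an unadjusted p under 0.05. The median log2 change was 0.18. Mcm4 read 10.5 and 9.47 CPM in sham and 11.0, 11.7 and 10.5 CPM in injured females, and Rrm2 4.43 and 4.88 against 4.69, 5.34 and 7.62 CPM. Only 2 sham libraries were in this comparison. Without overlap, 11 members were higher in injured libraries, against 12.7% of all genes, and 1 (Foxm1) was lower, against 24.7% of all genes without overlap in either direction. With both sexes weighted equally 0 members were called by edgeR, against 0.196% of all genes (12 at an unadjusted p under 0.05, and 7 called by DESeq2), while 2 were called without sham male replicate 3 and 6 without injured male replicate 2, against 0.789% and 1.03% of all genes.

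Mcm4 was the only member that by edgeR differed between injured males and females in the isolates (1.10 ± 0.21, adjusted p = 0.0275, 1 of 41 called against 1.50% of all genes), at 21.2 to 28.1 against 10.5 to 11.7 CPM, and this call held in 3 of 11 fits without 1 library, those without sham male replicate 1 or 3 or injured male replicate 2, and DESeq2 called 5 members. In sham isolates 0 members differed between the sexes, against 0.432% of all genes, and 0 had an unadjusted p under 0.05 or were called by DESeq2. The injury response differed between the sexes in 0 members by edgeR, against 0% of all genes, with 7 at an unadjusted p under 0.05 and 1 called by DESeq2.

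Between isolations, 3 members were higher in sham bead isolates than in sham tubules and 0 lower, against 12.3% of 21206 genes tested in the fit of all libraries. Ccnd2, encoding cyclin D2, ranged from 3.89 to 24.0 CPM over sham isolates and from 0.610 to 7.39 CPM over sham tubules (2.24 ± 0.52, adjusted p = 0.00687), and was called in 23 of 23 fits without 1 library. Cdk1 (2.02 ± 0.55, adjusted p = 0.0187) differed in level between isolations in the sham females, at 0.428 and 0.271 CPM in isolates and 0.0321, 0 and 0 in tubules. In sham males the isolates did not hold more Cdk1 reads (52) than the tubules (77). Mcm4 differed little (0.47 ± 0.14, adjusted p = 0.0339). With a block on the title numbers that tubule and isolate libraries share, Ccnd2 alone was called, against 8.45% of all genes. The labels do not say whether these libraries come from the same mouse. The count fell to 1 without sham female isolate replicate 1, sham male isolate replicate 3 or sham female tubule replicate 3. After injury Ccnd2 alone was higher in isolates (1.75 ± 0.49, adjusted p = 0.0475, against 4.69% of all genes), in 9 of 23 fits without 1 library, and 2 members were called without injured male tubule replicate 3. With the block on title numbers 0 were called, against 3.60%. The injury response differed between isolations in 0 members by edgeR and by DESeq2, against 0% of all genes, with 2 at an unadjusted p under 0.05.

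Of 137 other genes of the pathway, listed by role, 34 (24.8%) were called in male tubules, against 19.0% of all genes. Of 46 other S-phase genes tested, 14 rose and 2 fell (34.8% called). Uhrf1, which maintains DNA methylation behind the replication fork, rose from 2.49, 1.21 and 1.19 to 5.53, 9.94 and 8.75 CPM (2.31 ± 0.41, adjusted p = 0.00567), and Fen1, the flap endonuclease of lagging-strand synthesis, also rose (1.42 ± 0.26, adjusted p = 0.00637). Mcm10, a replication initiation factor, fell (-1.15 ± 0.21, adjusted p = 0.00605). Of 52 other mitotic genes, 6 rose and 1 fell, 13.5% and below the share of all genes. Plk4, the kinase of centriole duplication, rose (1.71 ± 0.39, adjusted p = 0.0151), as did Kif23 (3.12 ± 0.73, adjusted p = 0.0168), whose injured libraries read 10.3, 7.35 and 0.921 CPM and whose sham libraries read 0.404 to 0.941 CPM. The calls of Uhrf1, Fen1 and Mcm10 held in 12 of 12 fits without 1 library. Plk4 and Kif23 held in 8, both lost without sham male replicate 2 or injured male replicate 1 or 2, Plk4 without sham male replicate 1 and Kif23 without sham male replicate 3. Of 13 G1 regulators, 3 rose and 1, the cyclin gene Ccnd3, fell (30.8% called; Ccnd3 -0.72 ± 0.13, adjusted p = 0.00568). The 34 became 10 without sham male replicate 2 or injured male replicate 2, 14 without injured male replicate 1, 15 without sham male replicate 3, 18 without sham male replicate 1, 52 (37.1%, against 42.5% of all genes) without injured male replicate 3, and 0 with only the groups compared.

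Of 26 genes listed as cell cycle inhibitors, 5 rose and 2 fell in male tubules (26.9% called, against 19.0% of all genes). Cdkn1a, encoding p21, read 20.8, 13.5 and 4.73 CPM in sham and 660, 589 and 23.4 CPM in injured males (5.03 ± 0.99, adjusted p = 0.00874). The injured libraries were all above sham, and replicates 1 and 2 far above replicate 3. Btg1 (2.48 ± 0.54, adjusted p = 0.0132) and E2f4, a repressor E2F (0.99 ± 0.20, adjusted p = 0.00890), rose, and Rbl2, encoding the pocket protein p130, fell (-1.17 ± 0.24, adjusted p = 0.0112). The calls of Cdkn1a, E2f4 and Rbl2 held in 12 of 12 fits without 1 library, and that of Btg1 in 9, lost without sham male replicate 2 or 3 or injured male replicate 2.

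In female tubules none of the 137 genes of these 4 lists was called by edgeR, 19 had an unadjusted p under 0.05, DESeq2 called 9, and Cdkn1a read 5.21 to 9.68 CPM in sham and 5.25 to 12.05 CPM in injured libraries (0.22 ± 0.86, adjusted p = 0.984). In male isolates 3 of 140 (2.14%) were called, against 0.864% of all genes: Gins2 (1.39 ± 0.24, adjusted p = 0.0286) and Uhrf1 (2.39 ± 0.45, adjusted p = 0.0404) of the S-phase list and Myc (3.22 ± 0.52, adjusted p = 0.0232) of the G1 list. Myc held in 9 of 11 fits without 1 library, lost without sham male replicate 1 or 2. Gins2 held in 3 (without sham male replicate 3, injured female replicate 3 or injured male replicate 2) and Uhrf1 in 2 (without sham male replicate 3 or injured male replicate 2). In female isolates 0 of 140 were called by edgeR, with 5 at an unadjusted p under 0.05, and 0 by DESeq2.

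The injured male libraries differed among themselves along these genes in both isolations. In tubules, replicates 1 and 2 had high Cdkn1a (660 and 589 CPM), Ccne1 (2.78 and 1.59) and Cdt1 (29.0 and 25.7) with low Cdk4 (22.6 and 32.8) and Tyms (5.73 and 6.85), and replicate 3 had 23.4, 0.480, 10.4, 60.8 and 22.7 CPM. In bead isolates it was replicate 2 that read high for Cdkn1a (888 CPM, against 48.5 and 45.6 in replicates 1 and 3) and Ccne1 (2.17 against 0.489 and 0.886) and low for Cdk4 (19.1 against 71.1 and 63.6) and Tyms (4.50 against 20.7 and 18.4). Mcm4 lay 1.10 to 1.44 above the sham male mean on the log2 scale in the 3 tubule libraries and 1.34 to 1.75 above it in the 3 isolates. These comparisons are descriptions of single libraries, with no test.

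**Figure D4:**
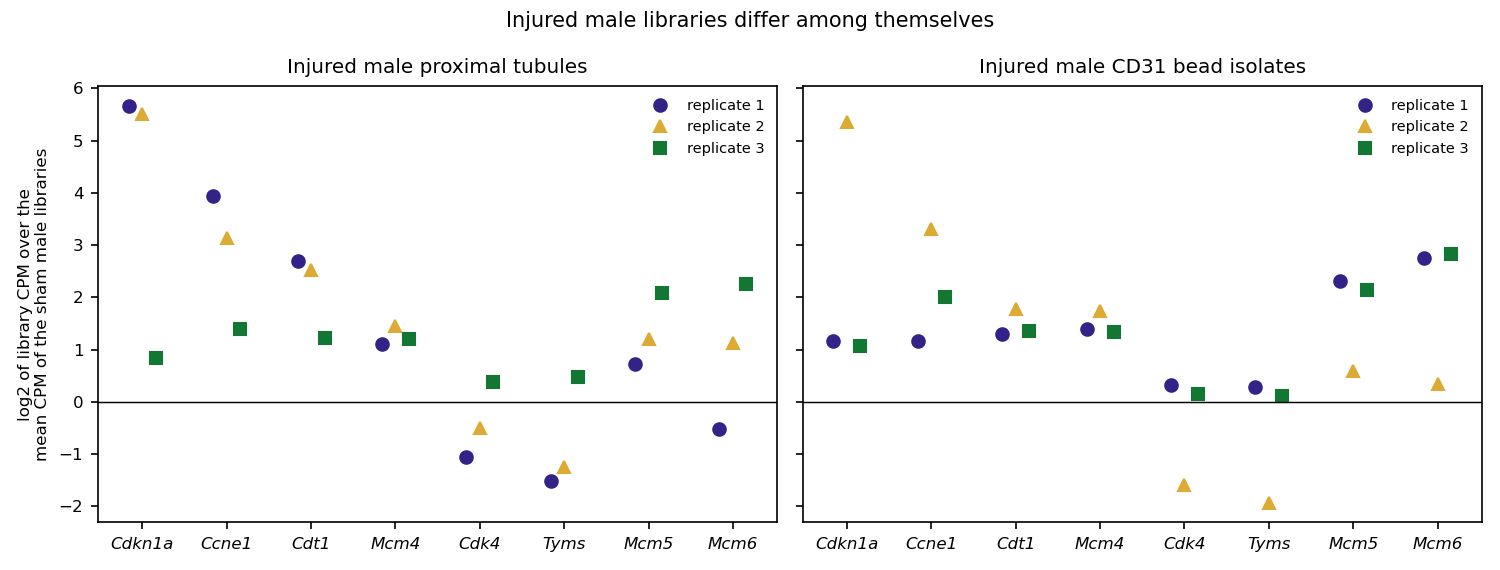
Log2 of the level in each injured male library over the mean of the sham male libraries of its isolation (y axis) for 8 genes (x axis), for tubules at left and CD31 bead isolates at right; marker shape gives the replicate. Tubule replicates 1 and 2 and isolate replicate 2 lie high for Cdkn1a and below 0 for Cdk4 and Tyms, while Mcm4 lies between 1 and 2 in all 6 libraries.

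The authors' deposited tables give their own comparisons. In the authors' deposited table for injury in male tubules 10 of the 41 members had an adjusted p under 0.05, against 22.8% of all genes given one, and 8 of them are among the 9 that rose above, the others being Ccnd1 (-0.75) and Ccnd2 (-3.27). In the authors' deposited table for female tubules 3 did, Cdk1, Cdc6 and Aurkb, against 2.50% of genes. The authors' deposited table for male bead isolates has 6, Brca1, Ccne2, Cdt1, Mcm3, Mcm5 and Rrm2, against 5.30%, and Mcm4 is not among them (adjusted p = 0.259). For injured tubules of males against females the authors' deposited table has 4, Cdt1, Mcm7, Nusap1 and Pcna, against 24.9%, and Mcm4 is not among them (adjusted p = 0.0811). For sham tubules the authors' deposited table has 4, Cdk1, Nusap1, Ccne2 and Aurkb, against 8.74%, and Rrm1 is not among them (adjusted p = 0.0749). The authors' deposited tables for female isolates and for isolates of males against females, sham or injured, have 0 members past that threshold, against 0.316% of genes with injury, 2.02% between sham sexes and 5.82% between injured sexes.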

How the data were processed

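Gene expression was measured by polyA RNA sequencing in 24 libraries, of which 23 were analysed because sham male tubule replicate 3 and its second library, 3B, were added. Per the submitters' processing notes, Salmon 0.13.1, GRCm38 and DESeq2 were used. The deposited files hold the authors' estimated counts (not whole numbers) and TPM per transcript, and the authors' deposited comparison tables hold log2 fold changes and p-values. The estimated counts were summed per gene over 136202 transcripts and rounded, giving 53392 genes and 32592517 to 54906972 reads per library.

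Genes were tested with edgeR 4.0.16 (R 4.3.3): quasi-likelihood test, TMM normalization, filterByExpr (count minimum 10, total 15), 1 mean per group, Benjamini-Hochberg adjustment over all genes tested, called at an adjusted p under 0.05. Separate fits used 12 tubule libraries, 11 isolates and all 23. The code was run on simulated counts that varied less between libraries than these data, with changes given only to well-read genes. That run cannot show how the test performs at the spread of these data or at the depth of the mitotic members. SE is the log2 change divided by the square root of F. Each adjusted p comes from edgeR unless DESeq2 1.42.0 is named. Tubule and isolate libraries share numbers in their titles, and the labels do not say whether the same number means the same mouse, so p-values measure only the spread between these samples, which may be technical. Alternatives were RLE scaling, no filter, DESeq2, transcript-length offsets, a replicate block, fits of only the groups compared, the libraries of sham male replicate 3 taken singly, and each library left out in turn. Any of the 41 members could be named with its level; log2 changes and adjusted p are given for called members, for the smallest p up to 6 where fewer were called, and for Mki67, Top2a, Cdk1, Ccnd1, Pcna and Mcm4 in injury comparisons, with up to 4 called genes of each other list and Cdkn1a. The members and lists were chosen with earlier results of these data known. Values of 1 gene of the S-phase list are not reported here. Intervals and floors cover counting error only.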

Additional observations from a re-analysis of the deposited data

Results flagged for a closer look

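The injury response of Cdk1 differed between male and female tubules by the interaction test (males minus females, -5.88 on the log2 scale, edgeR adjusted p = 0.0332). Cdk1 had 77 reads over the 3 sham male libraries and 1 over the 3 sham female libraries, and 120 and 141 over the injured male and female libraries. The fitted size depends on the prior count because of that 1 read. Protein-coding transcripts held 34.7% of the sham male reads and 65.3% and 56.7% of the injured male and female reads.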

How the results depend on the processing

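Counts of members called moved as follows. DESeq2 called 14 in male tubules, 6 in female tubules, 18 in the mean of sexes, 2 in the tubule sex difference of response, 9 in male isolates, 7 in the mean of isolates, 5 between injured isolates of each sex and 1 in the isolate response. Transcript-length offsets gave 5 in male tubules, 5 in the mean, 3 between injured tubules of each sex, 0 in the tubule response, 0 in male isolates, 0 between injured isolates, and 0 between isolations in sham and 0 in injured. Without the filter the counts were 1 in female tubules, 1 between sham tubules, 2 in the tubule response, 8 in male isolates, 4 in the isolate mean, 0 between injured isolates and 1 between sham isolations. Fits of only the groups compared gave 0 in male tubules, 6 in female tubules, 3 between injured tubules, 0 in male isolates, 0 between injured isolates and 1 between sham isolations. RLE scaling gave 0 between injured isolations. Library 3B alone gave 1 in female tubules, 1 between sham tubules and 0 between injured isolations, and the first library alone 1 between sham tubules. Pairing by number was described by correlating the deviations of libraries from their group means in log2 CPM, not the levels themselves. Replicate numbers did not pair libraries within an isolation (deviations correlated at -0.066 to 0.176 in tubules and -0.282 to 0.248 in isolates). The deviations of tubule and isolate libraries of 1 title number correlated at -0.43, 0.369 and 0.575 in injured males. In the other groups they correlated at -0.037 to 0.18, so not every pair deviated together. The replicate block gave 11 in male tubules, 0 in female tubules, 1 between sham tubules, 0 in the tubule response, 0 in male isolates and 0 between injured isolates. A block on the title numbers gave 1 between sham and 0 between injured isolations. The cause of these shifts was not tested.

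Reversed directions concerned changes that the main fits did not call. The reversed value of Ccnd2 with length offsets was itself called (adjusted p = 0.0453). Mki67 in male tubules read 0.0055 under RLE, 0.019 without the filter, 0.0067 by DESeq2, 0.066 with the replicate block, 0.014 with only the groups compared and 0.14 with library 3B alone, and Top2a there 0.0092 with the block. In female tubules Cdkn1a read -0.079 with the block, in female isolates Mki67 read -0.19 and Top2a -0.041 with it, and Ccnd2 in male tubules read -3.85 with length offsets. Leaving out each library in turn gave ranges of -0.32 to 0.46 for Mki67 and -0.68 to 0.26 for Top2a in male tubules, -0.10 to 0.48 for Cdkn1a in female tubules, and -0.07 to 1.01 for Mki67, -0.30 to 1.00 for Top2a and -1.40 to 0.44 for Cdkn1a in female isolates.

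Leaving out each library in turn gave 3 to 14 called members in male tubules, 0 to 4 in female tubules, 6 to 16 in their mean, 1 to 4 between sham and 3 to 11 between injured tubules of each sex, and 0 to 6 in the tubule response. In isolates the ranges were 0 to 7 in males, 0 to 6 in the mean and 0 to 2 between injured sexes, and between isolations 1 to 3 in sham and 0 to 2 in injured. Depth limits the mitotic members, which had at most 117 reads in a tubule library.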

Other observations

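Ccnd2, singled out after its values were seen, took opposite directions by how transcripts were combined. Summed reads gave a log2 change of 0.42 in injured male tubules (edgeR adjusted p = 0.71), the fit with transcript-length offsets gave -3.85 (adjusted p = 0.0453), and the authors' deposited table gives -3.27 (adjusted p = 0.00122). In sham male tubule replicates 1 and 2, 1.958 of 62 and 0.862 of 117.612 reads of the gene were assigned to a transcript of 115 bases, whose effective length is given as 4. That transcript had 5.42 and 2.42 TPM in those libraries, against 0.0893 and 0.215 TPM for the transcript of 6330 bases that held most of the reads. Injured male tubules had 0 reads in the short transcript.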
